A study of Mus musculus with 6 samples.

Results

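The sodium and calcium pump subunits described here are 6 genes of the 22413 in the authors' gene table. They were chosen by name and not by a rule on their values, though earlier results of these data were known. They are the Na/K-ATPase beta subunits Atp1b1, Atp1b2 and Atp1b3, the endoplasmic reticulum calcium pump Atp2a2, and the plasma membrane calcium pumps Atp2b1 and Atp2b2. All 6 were found in the table and all 6 passed the filter on low counts. They were measured by bulk RNA sequencing of retinal ganglion cells, which carry visual signals from the eye to the brain, from adult mice. Libraries called Cre-positive came from Tgfbr1flx/flx;Vglut2Cre/+ mice and those called Cre-negative from Tgfbr1flx/flx;Vglut2+/+ mice, with 3 libraries in each group. Both groups carried floxed alleles of Tgfbr1, a receptor of TGF-beta signalling, and they differed by a Cre allele at Vglut2 (Slc17a6), a gene of glutamatergic neurons. The labels do not say how the cells were isolated or whether a sample was 1 animal or a pool, so the p-values reflect sample-to-sample spread alone, and this can be technical.

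Na/K-ATPase uses ATP to export sodium and import potassium, and so sets the ion gradients on which action potentials and secondary transport depend. Its alpha subunit carries out catalysis and transport, and its beta subunit is a glycoprotein needed for folding of the pump and its delivery to the plasma membrane. Calcium is cleared from the cytosol by related P-type pumps, into the endoplasmic reticulum by SERCA pumps such as that encoded by Atp2a2, and out of the cell by PMCA pumps such as those encoded by Atp2b1 and Atp2b2. Neurons spend much of their energy on both kinds of transport.

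The libraries held 13936519, 21126291 and 8098891 counts in Cre-positive 1, 2 and 3, and 11609621, 7486359 and 16372260 counts in Cre-negative 1, 2 and 3. At 10 counts or more, which is called detection here, 5790 to 7209 genes were found in Cre-positive libraries and 4258 to 4863 in Cre-negative libraries. A count of 0 allows up to 3 counts. In units of CPM, the count scaled to the library total, that is 0.142 to 0.37 CPM in Cre-positive libraries and 0.183 to 0.401 CPM in Cre-negative libraries. These limits cover counting error only. Tgfbr1 had 46, 0 and 793 counts in Cre-positive libraries and 1, 0 and 1538 in Cre-negative libraries, and counts over the whole gene do not check the floxed part. The 13 ganglion cell markers summed to 2713 to 3599 CPM in Cre-positive libraries and 611 to 4787 CPM in Cre-negative libraries, with Pou4f2 at 1 count or fewer in every library. Cre-negative 3 stood apart. It held 0 counts of Slc17a6 and 611 CPM of ganglion cell markers. Not every ganglion cell marker was low there. Thy1 had 1 count and Nefl 85, but Rbpms had 4203 counts (257 CPM) and Pou4f1 had 1394 (85.1 CPM). Single ganglion cell markers were low or absent in other libraries too. Rbpms had 1 count in Cre-positive 1 and 52 in Cre-negative 1, and Pou4f1 had 0 in Cre-negative 1. The 8 endothelial markers summed to 5678 CPM in Cre-negative 3. They summed to 212 to 723 CPM in Cre-positive libraries and to 206 and 35.9 CPM in Cre-negative 1 and 2. Markers of rods and cones were near 0, at 13.1 CPM at most in Cre-positive libraries and 7.15 CPM at most in Cre-negative libraries.

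Atp1b1, the most widely expressed beta subunit, was the steadiest of the 6 genes. It had 108, 293 and 178 CPM in Cre-positive 1, 2 and 3, and 268, 108 and 516 CPM in Cre-negative 1, 2 and 3. The groups overlapped almost completely, and every library held at least 805 counts. Within each library Atp1b1 ranked high among detected genes by FPKM, the authors' level per gene length and library total, at percentiles 76.5 to 88.4 in Cre-positive libraries and 62.5 to 88.7 in Cre-negative libraries. Its mean was 193 ± 93.3 CPM in Cre-positive libraries and 297 ± 206 CPM in Cre-negative libraries (SD, n = 3 each). The log2 fold change, Cre-positive over Cre-negative, was -0.59 ± 1.52 (SE), with a 95% interval of -3.75 to 2.58. Its adjusted p was 0.9998 in edgeR's quasi-likelihood test with Benjamini-Hochberg adjustment over all 5727 genes tested, and the highest library was Cre-negative 3, without which the value was -0.04. At the 3′ end of Atp1b1, 575 annotated exonic bases overlap exons of Nme7 on the other strand, and Nme7 had 6 counts or fewer in every library.

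Atp1b2 encodes the beta subunit also known as the adhesion molecule on glia, and in the retina it takes part in binding retinoschisin to photoreceptors. It was found in few libraries. It had 1.51, 112 and 0 CPM in Cre-positive 1, 2 and 3 and 262, 0 and 0.0611 CPM in Cre-negative 1, 2 and 3. A library of each genotype thus carried nearly all of the signal, with 2375 counts in Cre-positive 2 and 3047 in Cre-negative 1. The other 4 libraries held 21 counts or fewer. The log2 fold change was -1.36 ± 3.44 (95% interval -8.52 to 5.79), and its sign followed those libraries, at -6.70 without Cre-positive 2 and 9.80 without Cre-negative 1. Photoreceptor markers summed to 0.0947 CPM in Cre-positive 2 and 0.431 CPM in Cre-negative 1. The 9 Müller glia markers in the table summed to 695 to 2264 CPM in Cre-positive libraries and 963 to 6281 CPM in Cre-negative libraries, most of it in every library from Vim, which other cell types also express. Of these markers, 3 were detected in Cre-positive 2, at a sum of 695 CPM, and 2 in Cre-negative 1, at a sum of 963 CPM. Glul, the glutamine synthetase of Müller glia, had 1015 counts (48.0 CPM) in Cre-positive 2 and 1442 counts (124 CPM) in Cre-negative 1. It had 94.9 and 112 CPM in Cre-positive 1 and 3, and 74.9 and 39.0 CPM in Cre-negative 2 and 3. Aqp4, Slc1a3 and Rlbp1 had 1 count or fewer in both Cre-positive 2 and Cre-negative 1, but they were missing from most other libraries too. Aqp4 was detected only in Cre-negative 2 (737 counts) and Rlbp1 only in Cre-negative 3 (2493 counts). Slc1a3 was detected only in Cre-positive 3 (290 counts) and Cre-negative 2 (1842 counts). The part of glial cells in the level of Atp1b2 was not tested.

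Atp1b3, a broadly expressed beta subunit, spanned the widest range of the beta subunits. It had 0, 217 and 402 CPM in Cre-positive 1, 2 and 3 and 226, 56.8 and 1220 CPM in Cre-negative 1, 2 and 3. Cre-positive 1 had no count of it among 13936519, while Cre-negative 3 held 19973 counts, 86.7% of those in its group. The groups overlapped, with means of 206 ± 201 CPM in Cre-positive libraries and 501 ± 628 CPM in Cre-negative libraries. The log2 fold change was -1.31 ± 1.86 (95% interval -5.32 to 2.71), and it turned to 0.34 without Cre-negative 3. Cre-negative 3 was also the library with the highest endothelial marker sum, and the part of those cells in the level of Atp1b3 was not tested. In bulk libraries, more cells of a type and more RNA per cell cannot be told apart.

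**Figure D1:**
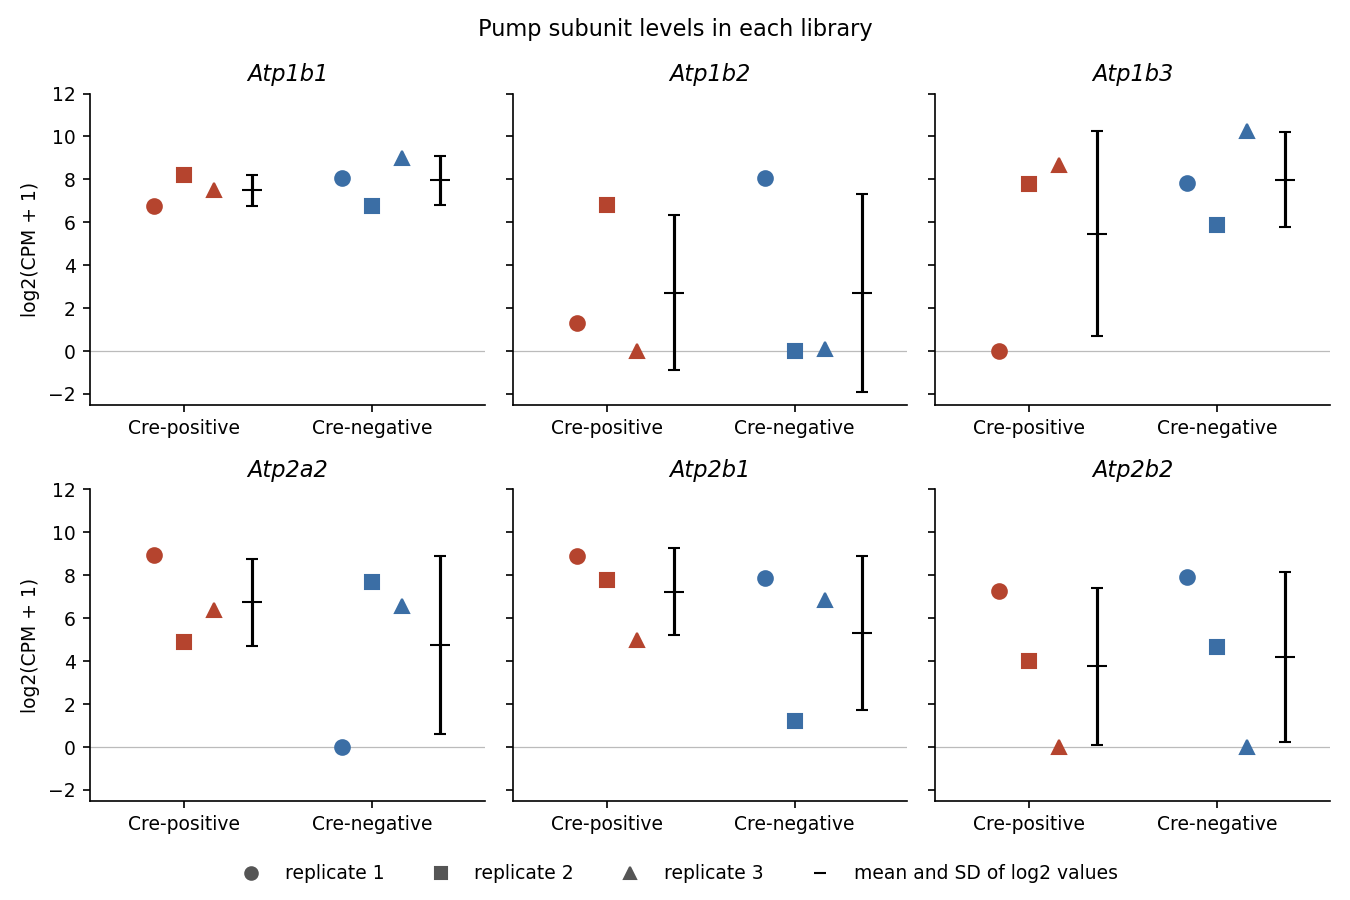
Level of each pump gene in each library on the log2(CPM + 1) scale, with Cre-positive libraries at the left of each panel and Cre-negative libraries at the right; bars give the mean and SD of the 3 log2 values. Atp1b1 stays between 108 and 516 CPM in all 6 libraries, while the other genes have libraries at or near 0 in at least 1 group.

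Atp2a2 encodes SERCA2, which refills the calcium store of the endoplasmic reticulum. It had 489, 28.9 and 83.1 CPM in Cre-positive 1, 2 and 3 and 0, 207 and 93.8 CPM in Cre-negative 1, 2 and 3. Cre-positive 1 was the highest library with 6811 counts, and Cre-negative 1 had none. The log2 fold change was 1.41 ± 2.54 (95% interval -3.87 to 6.68), and without Cre-positive 1 it was -0.70. The groups overlapped, and the remaining 4 libraries lay between 28.9 and 207 CPM.

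Atp2b1 encodes PMCA1, the widely expressed plasma membrane calcium pump. It had 482, 222 and 31.0 CPM in Cre-positive 1, 2 and 3 and 232, 1.34 and 115 CPM in Cre-negative 1, 2 and 3. Although 10 counts or more were found in every library, Cre-negative 2 held exactly 10, and its neighbours in its own group held 2694 and 1884. The means were 245 ± 226 CPM in Cre-positive libraries and 116 ± 115 CPM in Cre-negative libraries. The log2 fold change was 1.15 ± 2.04 (95% interval -3.10 to 5.40), and it was -0.01 without Cre-positive 1.

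Atp2b2 encodes PMCA2, a fast pump found mainly in neurons and sensory cells. It had 155, 15.0 and 0 CPM in Cre-positive 1, 2 and 3 and 239, 24.2 and 0 CPM in Cre-negative 1, 2 and 3. The spread was alike in the groups, each with a library above 150 CPM, a library between 15.0 and 24.2 CPM and a library at 0. Libraries with the same replicate number were not taken as pairs. The log2 fold change was -0.53 ± 3.20 (95% interval -7.18 to 6.11), and it turned to 2.82 without Cre-negative 1, whose 2775 counts were 93.9% of those in its group. Among libraries at 0, Cre-negative 3 also lacked Slc17a6, whereas Cre-positive 3 held 2101 counts of Slc17a6.

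None of the 6 genes passed the comparison of genotypes. In edgeR's quasi-likelihood test 0 of 6 had a Benjamini-Hochberg adjusted p under 0.05, each at an adjusted p of 0.9998, against a background of 0% of the 5727 genes tested. At an unadjusted p under 0.05 there were also 0 of 6, the smallest being 0.495 for Atp1b3, where the background was 4.49% higher and 0.419% lower in Cre-positive libraries. DESeq2 and limma voom called none of the 6 either, while calling 15% and 1.54% of the genes to which they gave an adjusted p. Atp1b2 had no p in DESeq2. For none of the 6 did the libraries of one genotype lie wholly above those of the other, as they did for 12.7% of all tested genes. The fold change was positive for 2 genes and negative for 4, with a median of -0.56 on the log2 scale, beside 54.2% positive and a median of 0.14 over all tested genes. The intervals are wide enough to hold 4-fold changes in either direction for all 6 genes, so the missing calls do not show equal levels.

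**Figure D2:**
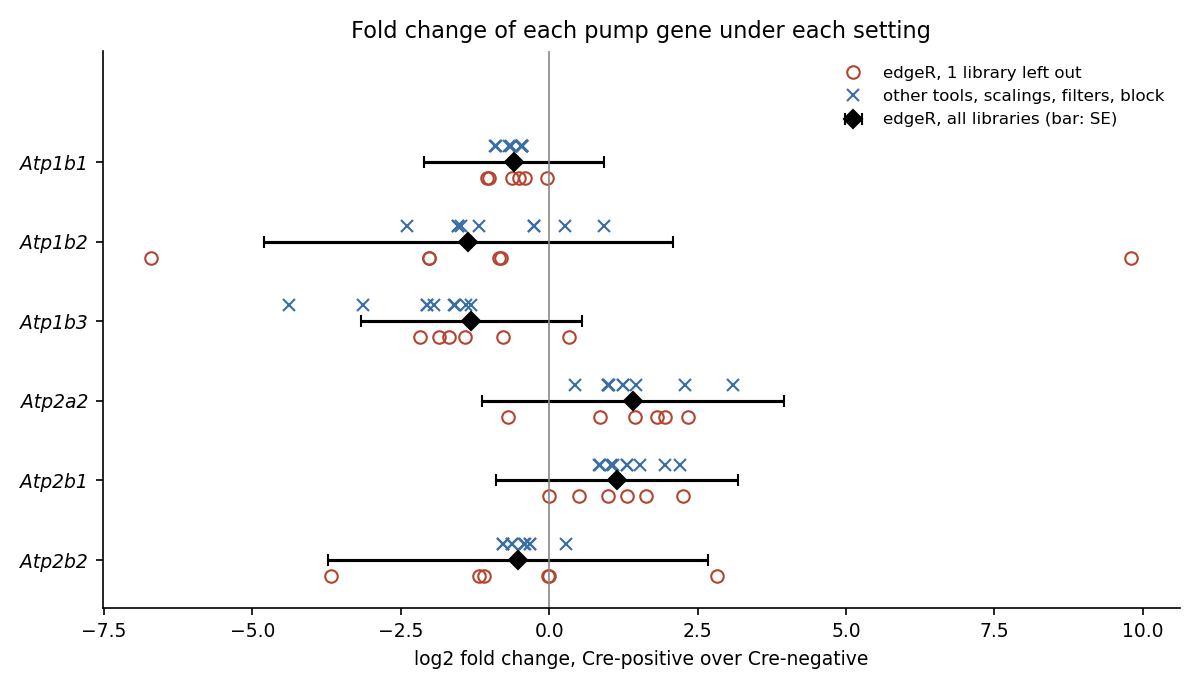
Log2 fold change of each pump gene, Cre-positive over Cre-negative, from edgeR with all 6 libraries (diamond, bar SE), with 1 library left out (circles) and under other tools, scalings and filters (crosses). Atp1b1 stays negative under every setting drawn, from -1.05 to -0.04, whereas each of the other 5 genes crosses 0 under at least 1 setting.

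Counted over genes and libraries, 15 of 18 combinations of pump gene and library were detected in Cre-positive libraries and 14 of 18 in Cre-negative libraries. By library, 5, 6 and 4 of the 6 genes were detected in Cre-positive 1, 2 and 3 and 5, 5 and 4 in Cre-negative 1, 2 and 3. The library that held all 6, Cre-positive 2, was also the deepest. Cre-negative 3, the next deepest, held 4, and Cre-negative 2, the shallowest, held 5. Atp1b1 and Atp2b1 were detected in all 6 libraries (2 of 6 genes, 33.3%), a pattern shown by 9.99% of the 11977 genes detected in any library. Of the 7 combinations under 10 counts, 6 were at exactly 0.

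Ordered by median FPKM over the 6 libraries, which corrects for gene length, Atp1b1 (86.1 FPKM) and Atp1b3 (84.8 FPKM) came highest, followed by Atp2b1 (20.6 FPKM), Atp2a2 (16.7 FPKM), Atp2b2 (1.54 FPKM) and Atp1b2 (0.190 FPKM). Within a genotype the order of these neighbours differed. The median of Atp1b3 lay above that of Atp1b1 in Cre-positive libraries (83.0 and 68.6 FPKM) and below it in Cre-negative libraries (86.5 and 104 FPKM). Likewise the median of Atp2b1 lay above that of Atp2a2 in Cre-positive libraries (27.1 and 15.7 FPKM) and below it in Cre-negative libraries (14.0 and 17.7 FPKM). Neighbours in that order did not separate, since the lowest to highest library ran from 41.5 to 199 FPKM for Atp1b1, from 0 to 466 FPKM for Atp1b3, from 0.163 to 58.8 FPKM for Atp2b1 and from 0 to 92.3 FPKM for Atp2a2. Atp2b2 reached 18.8 FPKM and Atp1b2 reached 63.5 FPKM. The length that the authors' FPKM imply for Atp2b1 is 8195 bases, whereas the exons that GENCODE M21 annotates for it cover 15218 bases, and the longer length would lower its level per kilobase.

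The mix of beta subunits differed from library to library. Atp1b1 made up 99.1%, 50.6% and 30.9% of the summed FPKM of the 3 beta genes in Cre-positive 1, 2 and 3, and 40.9%, 65.7% and 29.9% in Cre-negative 1, 2 and 3. Atp1b3 took 0%, 37.2% and 69.1% in Cre-positive libraries and 34.1%, 34.3% and 70.0% in Cre-negative libraries. Atp1b1 was thus the leading beta gene in 2 libraries of each genotype and Atp1b3 in replicate 3 of each. Atp1b2 reached 12.2% in Cre-positive 2 and 25.0% in Cre-negative 1 and stayed under 1% elsewhere. The mean share of Atp1b1 was 60.2% ± 35.1 in Cre-positive libraries and 45.5% ± 18.3 in Cre-negative libraries (SD, n = 3 each), a difference of 14.7 percentage points that lay within the spread. It turned to -4.75 without Cre-positive 1 and was 6.94 without Cre-negative 3, 24.8 without Cre-negative 2 and 29.4 without Cre-positive 3.

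Of the 2 plasma membrane calcium pumps among the 6 genes, Atp2b1 led in most libraries. Atp2b1 made up 82.8%, 95.8% and 100% of the summed FPKM of these 2 genes in Cre-positive 1, 2 and 3. It made up 60.1%, 7.90% and 100% in Cre-negative 1, 2 and 3. These shares leave out Atp2b4, a further PMCA pump. In Cre-positive 2 Atp2b4 had 10.3 FPKM, between Atp2b1 (27.1 FPKM) and Atp2b2 (1.18 FPKM), and it had 0 in the other libraries. The exception by FPKM was Cre-negative 2, where Atp2b2 took 92.1%, at only 1.90 FPKM against 0.163 FPKM of Atp2b1. In Cre-negative 1 the lead of Atp2b1 rested on the gene lengths used, since it took 49.3% of the summed CPM there. The mean share of Atp2b1 was 92.9% ± 8.96 in Cre-positive libraries and 56.0% ± 46.2 in Cre-negative libraries (SD, n = 3 each). The difference of 36.9 percentage points was 12.8 without Cre-negative 2 and 58.9 without Cre-negative 3.

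**Figure D3:**
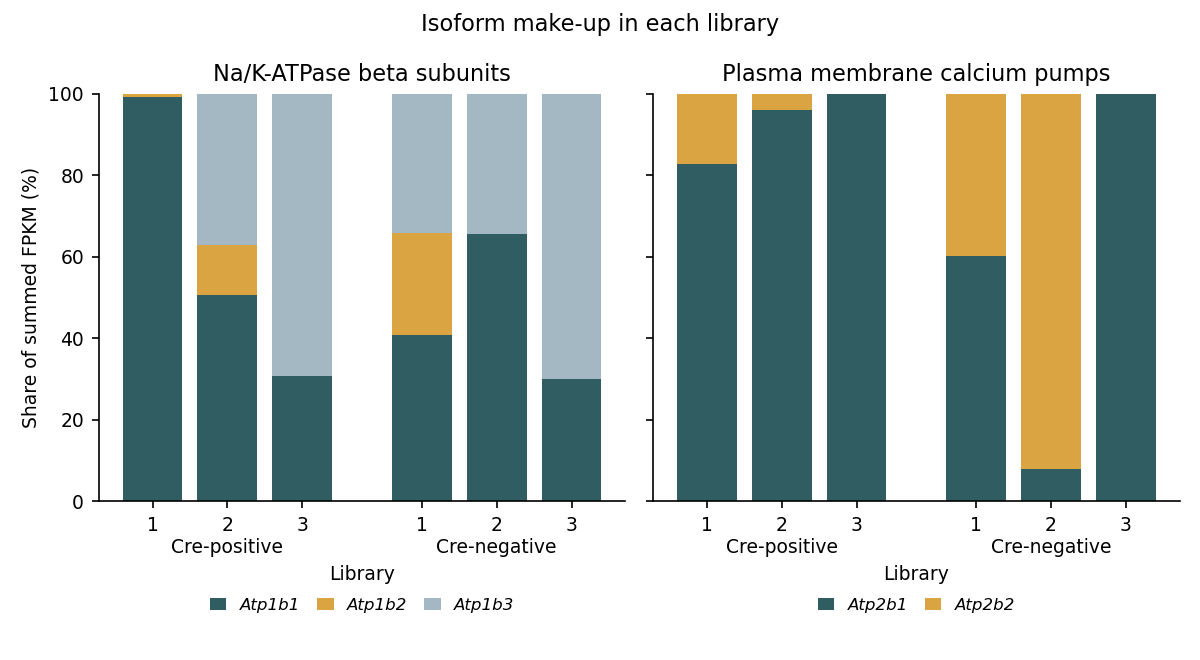
Share of each gene in the summed FPKM of the genes drawn in its panel, in percent. The panels show the Na/K-ATPase beta subunits Atp1b1, Atp1b2 and Atp1b3, and the plasma membrane calcium pumps Atp2b1 and Atp2b2, without Atp2b4. Each bar is 1 library, Cre-positive 1 to 3 at the left. Shares differ widely within a genotype, as with Atp1b1 at 99.1% in Cre-positive 1 and 30.9% in Cre-positive 3.

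Among related genes in 7 lists, 60 of 72 symbols were found and 31 were tested. With edgeR 0 of the 31 passed at an adjusted p under 0.05, and at an unadjusted p under 0.05 there were 2 higher and 1 lower, beside 4.49% higher and 0.419% lower over all tested genes. DESeq2 called 2 of the 29 to which it gave an adjusted p, Ncald among them, where it called 15% of all genes. limma voom called 1 of the 31 (Calm2), where it called 1.54% of all genes, and it put Calm2 higher in Cre-positive libraries while edgeR gave it a log2 fold change of -0.06 ± 0.89. Positive fold changes numbered 14 and negative ones 17, with a median of -0.19 on the log2 scale. Groups did not overlap for 4 genes higher and 1 lower in Cre-positive libraries, where the backgrounds were 10.4% and 2.3% of tested genes. Of the FXYD proteins, small regulators of Na/K-ATPase, only Fxyd5 was tested, with 618, 125 and 389 CPM in Cre-positive libraries and 265, 0 and 1654 CPM in Cre-negative libraries. Of the other calcium pumps only Atp2c1, the Golgi calcium and manganese pump, was tested, with 163, 724 and 77 counts in Cre-positive libraries and 2, 0 and 1148 in Cre-negative libraries. Atp2b4, which encodes a further PMCA pump, had 2011 counts in Cre-positive 2 and 0 in each of the other libraries, and was not tested.

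Neither of 2 partner proteins of the plasma membrane calcium pumps passed the comparison, although each Cre-positive library lay above each Cre-negative library, as for 10.4% of all tested genes. Neuroplastin (Nptn) and basigin (Bsg) are membrane glycoproteins that form complexes with PMCA pumps and stabilise them. Nptn had 308, 136 and 197 CPM in Cre-positive 1, 2 and 3 and 0.345, 5.48 and 22.2 CPM in Cre-negative 1, 2 and 3, a log2 fold change of 4.72 ± 3.04 (unadjusted p = 0.135, adjusted p = 0.9998 in edgeR). Bsg, named after its values were seen, had 191, 217 and 162 CPM in Cre-positive libraries and 155, 42.9 and 52.5 CPM in Cre-negative libraries (1.20 ± 2.38, adjusted p = 0.9998 in edgeR). For Atp2b1 and Atp2b2 the groups overlapped.

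Canx, the calnexin chaperone of the endoplasmic reticulum, had 523, 358 and 48.4 CPM in Cre-positive libraries and 636, 225 and 703 CPM in Cre-negative libraries. The list of pump partners and regulators had a median log2 fold change of -0.21 over 8 tested genes, 3 of them positive.

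Of 8 sodium-calcium exchangers and 18 calcium release and entry genes in the table, 3 and 9 were tested. Their median log2 fold changes were 1.58 and -0.19. Of the exchangers, Slc24a3 had 2405, 853 and 1 counts in Cre-positive libraries and 15, 0 and 0 in Cre-negative libraries (unadjusted p = 0.0972), while Slc8a1 had 1, 362 and 0 counts in Cre-positive libraries and 763, 0 and 202 in Cre-negative libraries. Slc24a2 was at 725, 0 and 759 counts in Cre-positive libraries and 0, 450 and 1 in Cre-negative libraries. Orai1, the pore of store-operated calcium entry, was the only gene of the 31 that was lower without overlap, with 0, 0 and 1 counts in Cre-positive libraries and 42, 6 and 2188 in Cre-negative libraries (unadjusted p = 0.0367, adjusted p = 0.850 in edgeR). Nearly all of that signal lay in Cre-negative 3. Ryr3, a calcium release channel, had 53, 565 and 0 counts in Cre-positive libraries and 2275, 0 and 0 in Cre-negative libraries.

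Cytosolic calcium buffers and sensors had a median log2 fold change of 0.60 over 6 tested genes. Ncald, neurocalcin delta, had 1159, 795 and 269 counts in Cre-positive libraries and 1, 0 and 0 in Cre-negative libraries, with an unadjusted p of 0.0277 and an adjusted p of 0.832 in edgeR, and DESeq2 called it. Calb1, which encodes calbindin, was detected in all 6 libraries, at 485, 736 and 210 CPM in Cre-positive libraries and 407, 25.1 and 520 CPM in Cre-negative libraries (0.63 ± 1.09). Its groups overlapped, as did those of Vsnl1, another calcium sensor, at 2691, 916 and 0 counts in Cre-positive libraries and 1, 150 and 0 in Cre-negative libraries.

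**Figure D4:**
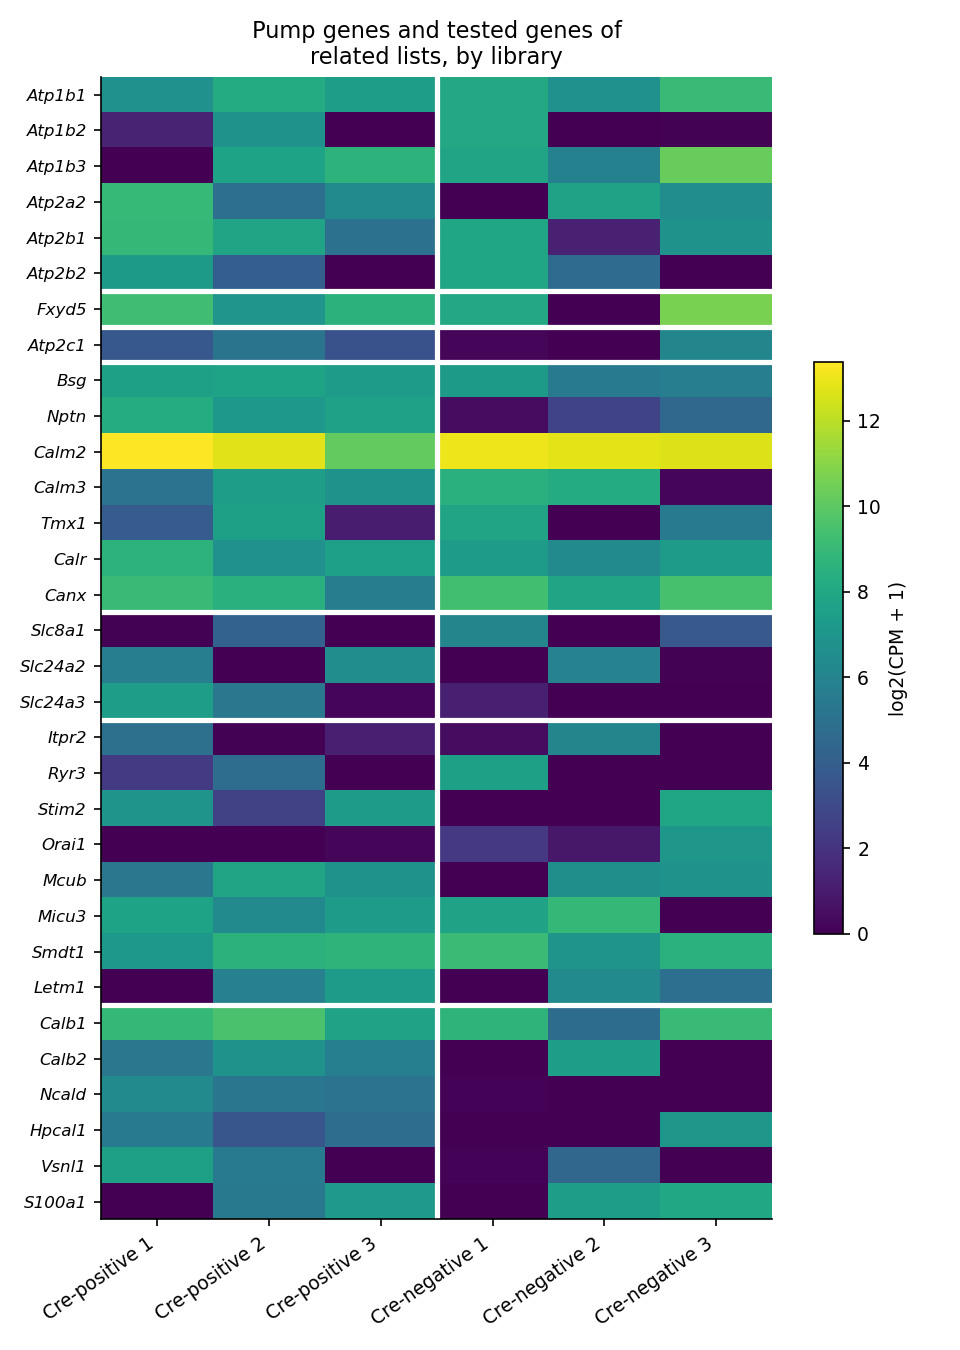
Level of the 6 pump genes (top block) and of 26 tested genes of the related lists in each library, as log2(CPM + 1); white lines separate the lists and the genotypes. Calb1 is above 25 CPM in every library, and Nptn and Ncald are darker in each Cre-negative library than in any Cre-positive library. Most other rows hold a dark cell in at least 1 library, several of them in Cre-negative libraries alone.

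The pump genes did not share a pattern over libraries. Pearson's r of log2(CPM + 1) between pairs of them ran from -0.82 for Atp1b2 and Atp2a2 to 0.77 for Atp1b1 and Atp1b3, over 6 libraries. The libraries differed in depth and in genes detected, and these differences act on every gene of a library. Against 5523 other tested genes, each pump gene had close matches over these 6 values, listed here as a description. For Atp1b1 the closest were Pecam1 (r = 0.982) and Sestd1 (r = 0.975), and Pecam1, an endothelial marker, had 5, 1322 and 211 counts in Cre-positive libraries and 552, 0 and 10918 in Cre-negative libraries. Atp1b2 was most like Cxxc5 (r = 0.999) and Zfp398 (r = 0.996), and Atp1b3 most like Ppp3ca (r = 0.975) and Hdgf (r = 0.968). Atp2a2 was most like Rapgef4 and Rtn3 (r = 0.981 each), Atp2b1 like Mgarp (r = 0.994) and Dhx15 (r = 0.978), and Atp2b2 like Zfp236 (r = 0.996) and Mus81 (r = 0.991). The matches of Atp1b2 and Atp2b2 also had libraries at or near 0 where the pump gene did, and Cxxc5 had 26, 1390 and 0 counts in Cre-positive libraries and 1980, 0 and 0 in Cre-negative libraries.

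In mm10, by the GENCODE M21 annotation, Atp1b1 lies on chromosome 1 (164437109 to 164458355), Atp1b2 on chromosome 11 (69599736 to 69605942), Atp1b3 on chromosome 9 (96332655 to 96364442), Atp2a2 on chromosome 5 (122453513 to 122502225) and Atp2b2 on chromosome 6 (113743831 to 114042613), all on the minus strand. Atp2b1 lies on the plus strand of chromosome 10 (98914406 to 99026143). The annotation lists 3 to 11 transcripts per gene, and counts per gene do not separate them. Besides Nme7, the only gene whose exons overlap those of a pump gene is the predicted Gm43361, over 83 bases of Atp2a2, and its level was not analysed here.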

How the data were processed

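Per the labels' protocols, 1 ng of total RNA (RNeasy Micro kit) went into each library (VAHTS Universal V6 kit). The submitters' processing notes name the mm10 build and HISAT2, HTSeq, fastp, DESeq2 and R 3.2.0 without their roles. Neither the strand setting nor the annotation is given in the sources used here. The authors deposited raw counts per gene and FPKM for 22413 genes, with 1 column per sample and 0 columns of other samples; no row lacked a gene name. The deposited FPKM equal counts divided by 1 length per gene and by the library total, within a relative spread of 6.5e-07, and carry no further scaling.

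Counts were tested over the whole table with edgeR 4.0.16 (quasi-likelihood F test with robust fitting, TMM factors, genes kept by filterByExpr, and genotype alone in the model) in R 4.3.3, with Benjamini-Hochberg adjustment at 0.05, and 5727 genes were tested. The biological coefficient of variation was 2.04. Standard errors are the fold change over the root of F, and 95% intervals use the t distribution of the fit. CPM uses library totals. DESeq2 1.42.0, limma 3.58.1 (voom, and log2(FPKM + 1) or log2(FPKM + 0.1)), other scalings, no filter, a replicate block and each library left out were alternatives. The tests were also run on simulated data with known changes. The simulated spread between libraries was set lower than that of these data, so those runs do not show how the tests perform here. Same-numbered libraries of the 2 genotypes did not deviate together (r = -0.0243, 0.026 and -0.0111 across genes). This check cannot exclude pairs, because the spread between libraries was large. The labels name no pairs, so the numbers were not taken as pairs. Tables were made with Python 3.11.15.

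The genes and lists were chosen with earlier results of these data known. Named genes were the 6 pump genes, up to 3 tested genes of each related list with the smallest unadjusted p, and the 2 genes with the pattern most like each pump gene among tested genes with a mean of at least 20 counts. Marker lists held, per list, 3 to 13 symbols found in the table. The 12 related symbols that were not matched are not analysed here, and some genes of the related lists are not reported.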

Additional observations from a re-analysis of the deposited data

How the results depend on the processing

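Over 90 fits of the 6 pump genes (15 alternatives each), 0 passed at an adjusted p under 0.05, 82 kept the direction and 8 turned it; the smallest adjusted p was 0.569, for Atp1b2 without Cre-negative 1, and Atp1b2 had none in DESeq2. No pump gene turned under the other scalings, which moved the median over all tested genes (log2 fold change 0.14 with TMM, -0.13 with DESeq2-type factors, 0.03 with library totals). Atp1b2 turned to 0.93 with limma voom and 0.27 with log2(FPKM + 0.1), and Atp2b2 to 0.29 with voom, where the median of all tested genes was 1.58; the cause was not tested. With 1 library left out, the log2 fold changes ran from -1.05 to -0.04 for Atp1b1, -6.70 to 9.80 for Atp1b2, -2.17 to 0.34 for Atp1b3, -0.70 to 2.34 for Atp2a2, -0.01 to 2.26 for Atp2b1 and -3.68 to 2.82 for Atp2b2.

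Over all tested genes edgeR called 0 (281 at an unadjusted p under 0.05), DESeq2 885, voom 88, and edgeR with 1 library left out 0 to 7. Of the related genes DESeq2 called 2 (Ncald among them) and voom 1 (Calm2), and the other settings 0. With the replicate number as a block, edgeR called 0 genes and the pump genes stood at -0.45 for Atp1b1, -2.39 for Atp1b2, -1.94 for Atp1b3, 0.44 for Atp2a2, 1.53 for Atp2b1 and -0.41 for Atp2b2. The labels do not say whether same-numbered libraries are pairs, and outside that block they were not taken as pairs.

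With 3 libraries a group and a coefficient of variation of 2.04, the comparison resolves only very large changes, and a count of 0 allows up to 0.401 CPM.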

Other observations

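The mitochondrial calcium uniporter, which takes up calcium that the pumps have not removed, was measured through 5 genes of the list on calcium release and entry. They were chosen after their values were seen. Smdt1, an essential subunit, was detected in every library, with 1966, 8189 and 3353 counts in Cre-positive libraries and 6348, 903 and 6164 in Cre-negative libraries. Mcu, the pore itself, had 309, 0 and 0 counts in Cre-positive libraries and 1, 0 and 6 in Cre-negative libraries. Mcub, a pore-forming relative that lowers uptake, had 553, 4731 and 927 counts in Cre-positive libraries and 0, 755 and 1901 in Cre-negative libraries. Micu3, a gatekeeper found mainly in neurons, had 3010, 1690 and 1287 counts in Cre-positive libraries and 2366, 3617 and 0 in Cre-negative libraries. Micu2, another gatekeeper, had 641, 0 and 26 counts in Cre-positive libraries and 0, 0 and 4 in Cre-negative libraries. The groups overlapped for each of these genes.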
